A study of Mus musculus with 11 samples.

Results

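Neutrophils pack their granules in a fixed order, and 10 genes of that order were followed here in fibrocartilage from the condyle of the mouse jaw. Elane, Mpo, Prtn3 and Ctsg encode proteins of the primary (azurophil) granules, which are made at the promyelocyte stage. Ltf, Camp, Ngp, S100a8, S100a9 and Fcnb are the later set. The genes were chosen by name, as markers of neutrophil maturation, with earlier results of these data known. They are 10 of the 23420 gene symbols in the count table. All 10 passed the filter on low counts and are among the 14531 genes tested.

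In bone marrow, promyelocytes transcribe the primary granule proteases and myeloperoxidase, switch these genes off, and as myelocytes and metamyelocytes turn on the genes of specific and gelatinase granules. Mature neutrophils in blood hold the granule proteins but little of the mRNA of the earlier sets. The balance of primary to later transcripts is therefore commonly read as the stage of the granulocytes in a sample. Fibrocartilage covers the condyle, whose underlying bone holds marrow.

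Poly-A RNA of all cells of the mandibular condylar fibrocartilage was sequenced from C57BL/6 female mice, all ovariectomized at 6 weeks of age and taken at 7 weeks after 1 week of treatment. The groups were KO mice with estradiol (3 libraries), KO mice with placebo (3), WT mice with estradiol (3) and WT mice with placebo (2). KO is the genotype labelled ERalphaKO, a knockout of estrogen receptor alpha, and WT is wild type. Estradiol came from a 0.01 mg pellet made to release over 60 days. The labels do not say how the knockout was made, nor that each library is a different animal, so p-values measure the spread between libraries, which may be technical.

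Library totals ran from 15.7 to 25.5 M counts, at which 3 counts correspond to 0.118 to 0.204 CPM, the TMM-scaled count per M counts. Intervals and such floors cover counting error only. Esr1, the targeted gene, was at 2.55 to 4.86 CPM in the 6 KO libraries and at 6.43 to 13.4 CPM in the 5 WT libraries. Fibrocartilage markers such as Col1a1 and Acan summed to at least 106669 CPM in every library. The ribosomal precursor Rn45s took 16.04% of WT placebo library 2 and 1.83% to 3.13% of the others. Library 1 of KO placebo stood apart in the granule genes, with 34 counts over all 10, against 14184 and 3574 in the other KO placebo libraries. Values with and without it are given where it matters.

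The start sites of 4 of the genes are shown because the primary and later sets differed in the short motifs they held. Each window is 300 bases around the annotated start, from RefSeq on build GRCm38.p6, 5′ to 3′ on the gene's own strand. Capitals mark GAGGAA, a core bound by PU.1, or TTNCNNAA, a core bound by C/EBP factors, each searched on both strands. No capitalised match in these 4 windows overlaps another. Mpo lies at chr11:87793534-87793833 (+), Prtn3 at chr10:79879417-79879716 (+), Ngp at chr9:110419558-110419857 (+) and Fcnb at chr2:28084829-28085128 (-).
Mpo: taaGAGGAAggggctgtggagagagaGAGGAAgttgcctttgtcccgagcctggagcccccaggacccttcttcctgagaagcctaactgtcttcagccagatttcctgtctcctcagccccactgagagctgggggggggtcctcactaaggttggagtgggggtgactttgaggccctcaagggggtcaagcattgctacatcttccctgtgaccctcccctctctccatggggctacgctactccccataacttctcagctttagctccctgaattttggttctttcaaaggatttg
Prtn3: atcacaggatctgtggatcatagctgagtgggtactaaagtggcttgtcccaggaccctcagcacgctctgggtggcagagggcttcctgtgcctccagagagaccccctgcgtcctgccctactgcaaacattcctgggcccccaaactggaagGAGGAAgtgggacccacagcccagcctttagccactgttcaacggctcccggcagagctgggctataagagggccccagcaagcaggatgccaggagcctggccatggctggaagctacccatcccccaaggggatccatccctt
Ngp: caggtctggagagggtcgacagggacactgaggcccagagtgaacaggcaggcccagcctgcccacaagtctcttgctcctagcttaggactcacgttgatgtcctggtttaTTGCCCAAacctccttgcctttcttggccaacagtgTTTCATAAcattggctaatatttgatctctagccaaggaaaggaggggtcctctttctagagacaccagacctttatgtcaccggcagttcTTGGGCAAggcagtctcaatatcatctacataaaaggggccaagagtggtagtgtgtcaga
Fcnb: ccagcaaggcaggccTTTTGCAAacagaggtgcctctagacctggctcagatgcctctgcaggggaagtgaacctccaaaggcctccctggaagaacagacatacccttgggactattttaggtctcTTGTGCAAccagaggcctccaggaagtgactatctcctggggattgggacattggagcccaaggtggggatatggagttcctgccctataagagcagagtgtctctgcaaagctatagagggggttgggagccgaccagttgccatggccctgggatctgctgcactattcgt

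GAGGAA was found in the windows of all 4 primary granule genes, and of the later genes in Ltf and S100a8. TTNCNNAA was found in none of the primary windows and in those of Ltf, Ngp, S100a8, S100a9 and Fcnb, but not Camp. Over 32851 mouse promoter windows of the same length, 28.3% held GAGGAA and 40.7% held TTNCNNAA. The consensus palindrome of the estrogen response element was in 0 of the 10 windows and in 0.0700% of all windows. These matches describe letters in a short window and say nothing of binding. Prtn3 and Elane are direct neighbours on chromosome 10, as are S100a8 and S100a9 on chromosome 3, and Ltf, Camp and Ngp all lie on chromosome 9.

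Among the primary granule genes, Mpo (myeloperoxidase, which makes hypochlorous acid) had the highest mean per kilobase of exon in every group but WT estradiol. Mpo stood at 62.2, 181 and 87.3 CPM in KO estradiol libraries 1 to 3, at 0.169, 45.7 and 8.75 CPM in KO placebo, at 1.62, 0 and 0.371 CPM in WT estradiol, and at 33.5 and 103 CPM in WT placebo. Elane, neutrophil elastase, stood at 15.1, 63.6 and 23.4 CPM in KO estradiol, at 0, 9.52 and 2.46 CPM in KO placebo, at 0.513, 0 and 0.124 CPM in WT estradiol, and at 12.4 and 29.1 CPM in WT placebo. Both genes were low in every WT estradiol library and in KO placebo library 1. The WT placebo libraries lay within or near the range of the KO estradiol libraries for each.

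Prtn3, proteinase 3, stood at 15.4, 47.1 and 26.5 CPM in KO estradiol, at 0.761, 10.6 and 2.51 CPM in KO placebo, at 0.434, 0.0920 and 0.412 CPM in WT estradiol, and at 9.69 and 24.1 CPM in WT placebo. Ctsg, cathepsin G, stood at 9.04, 22.7 and 10.6 CPM in KO estradiol, at 0.0423, 7.92 and 0.934 CPM in KO placebo, at 0.118, 0.0460 and 0 CPM in WT estradiol, and at 4.90 and 14.6 CPM in WT placebo. Prtn3 kept a low level where its neighbour did not. In KO placebo library 1 it had 18 counts against 0 of Elane.

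Of the later set, Ltf (lactoferrin, an iron-binding protein), Camp (the cathelicidin peptide) and Ngp (neutrophilic granule protein) belong to specific granules. Ltf stood at 173, 517 and 171 CPM in KO estradiol, at 0, 112 and 22.7 CPM in KO placebo, at 0.355, 5.15 and 1.03 CPM in WT estradiol, and at 7.81 and 22.2 CPM in WT placebo. Camp stood at 88.9, 288 and 94.3 CPM in KO estradiol, at 0.0846, 40.8 and 9.22 CPM in KO placebo, at 0.158, 1.20 and 0.289 CPM in WT estradiol, and at 4.04 and 8.71 CPM in WT placebo. Unlike the primary genes, these were many times higher in KO estradiol than in either WT placebo library. Ngp stood at 304, 927 and 315 CPM in KO estradiol, at 0.0423, 161 and 41.1 CPM in KO placebo, at 0.316, 5.06 and 1.61 CPM in WT estradiol, and at 16.6 and 36.7 CPM in WT placebo.

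S100a8 and S100a9 encode the 2 chains of calprotectin, an abundant cytosolic protein of neutrophils and monocytes. S100a8 stood at 197, 778 and 253 CPM in KO estradiol, at 0.254, 101 and 24.8 CPM in KO placebo, at 1.38, 8.09 and 1.94 CPM in WT estradiol, and at 36.6 and 79.5 CPM in WT placebo. S100a9 stood at 303, 1293 and 418 CPM in KO estradiol, at 0.0846, 177 and 38.3 CPM in KO placebo, at 2.37, 15.5 and 2.76 CPM in WT estradiol, and at 58.8 and 127 CPM in WT placebo. For both genes, WT placebo lay between KO placebo libraries 3 and 2. Fcnb, ficolin B, a secreted pattern-recognition lectin of immature myeloid cells, stood at 4.63, 25.7 and 10.5 CPM in KO estradiol, at 0, 1.17 and 1.06 CPM in KO placebo, at 0.0395, 0 and 0 CPM in WT estradiol, and at 2.37 and 1.56 CPM in WT placebo. Its single count among the WT estradiol libraries was in library 1.

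**Figure D1:**
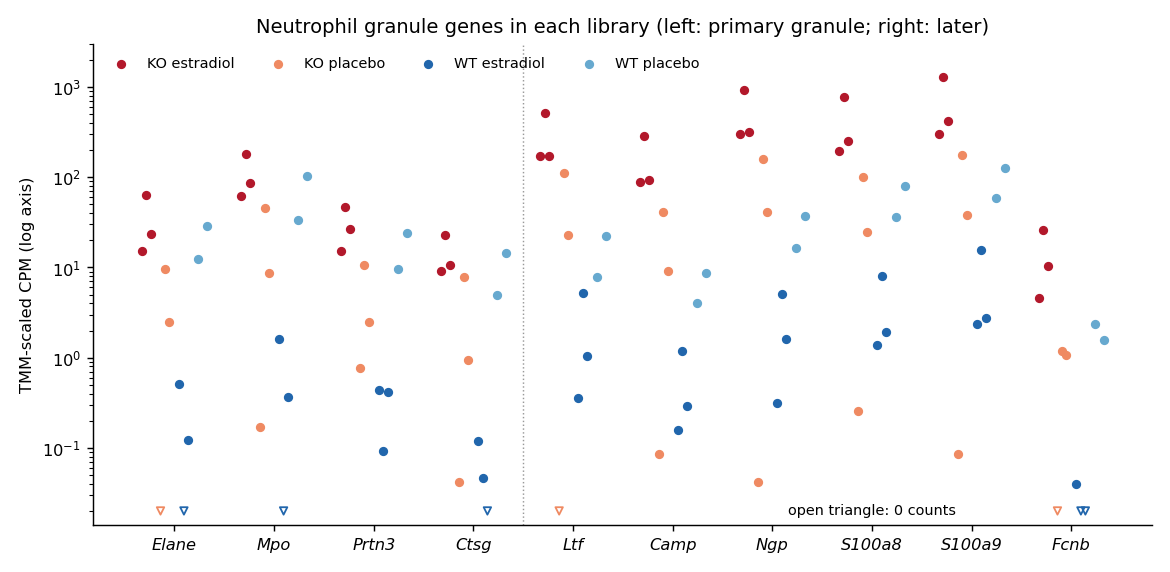
Level of each of the 10 genes in each library (TMM-scaled CPM, log axis), 1 point per library, with open triangles for libraries with 0 counts. For the primary genes on the left, the WT placebo points fall among the KO estradiol points or just under them. For the later genes on the right they fall below all 3.

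Per kilobase of exon, the order in KO estradiol was S100a9, S100a8, Ngp, Camp, Ltf, Mpo, Elane, Prtn3, Ctsg and Fcnb. S100a9 averaged 1286 ± 1037 and Fcnb 10.3 ± 8.25 CPM per kilobase (SD, n = 3). The ranges over libraries of neighbours in that order overlapped throughout. In WT placebo, S100a9 and S100a8 also led, but Mpo came next at 23.4 ± 16.8 CPM per kilobase (SD, n = 2), level with Ngp at 21.8 ± 11.7. Elane, Prtn3 and Ctsg followed, ahead of Camp (8.41 ± 4.36) and Ltf (5.35 ± 3.63). Apart from S100a8 with Mpo, and Ltf with Fcnb, the ranges of neighbours overlapped in WT placebo too.

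The balance of the sets can be read within a library, as the share of the counts of all 10 genes that came from the 4 primary genes. In KO estradiol it was 8.68% (exact Clopper-Pearson 95% interval 8.30 to 9.07), 7.58% (7.39 to 7.78) and 10.5% (10.1 to 10.8). In KO placebo it was 67.6% of only 34 counts (49.5 to 82.6) in library 1, 18 of which were Prtn3, and 11.1% (10.6 to 11.6) and 9.65% (8.70 to 10.7) in libraries 2 and 3. In WT placebo it was 32.4% (30.8 to 34.0) and 38.2% (37.0 to 39.4). The other 5 KO libraries thus lay between 7.58% and 11.1%, and both WT placebo libraries stood above them by far more than counting error.

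The WT estradiol libraries held few transcripts of either set, and they differed among themselves. The primary share was 36.8% of 185 counts (29.8 to 44.1) in library 1, 0.393% of 763 counts (0.0812 to 1.14) in library 2, and 10.6% of 207 counts (6.78 to 15.6) in library 3. Library 2 had 3 primary counts, 2 of Prtn3 and 1 of Ctsg, beside 336 of S100a9 and 112 of Ltf. Library 1 had 41 counts of Mpo against 8 of Ngp. The group therefore had no common balance, and its mean of 15.9% ± 18.8 (SD, n = 3) describes no library in it.

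Within the later set, the specific granule genes and the calprotectin genes also shifted against each other. Ltf, Camp and Ngp made up 53.1%, 45.5% and 46.4% of their counts plus those of S100a8 and S100a9 in KO estradiol, and 53.0% and 53.7% in KO placebo libraries 2 and 3. In WT placebo the share was 22.9% and 24.7%. KO placebo library 1, with 11 such counts, gave 27.3%, and WT estradiol gave 18.1%, 32.6% and 38.4%. Mpo and Ngp, for example, shifted against each other as well: Mpo made up 17.0%, 16.3% and 21.7% of their joint counts in KO estradiol and 22.1% and 17.6% in KO placebo libraries 2 and 3, against 66.9% and 73.6% in WT placebo.

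**Figure D2:**
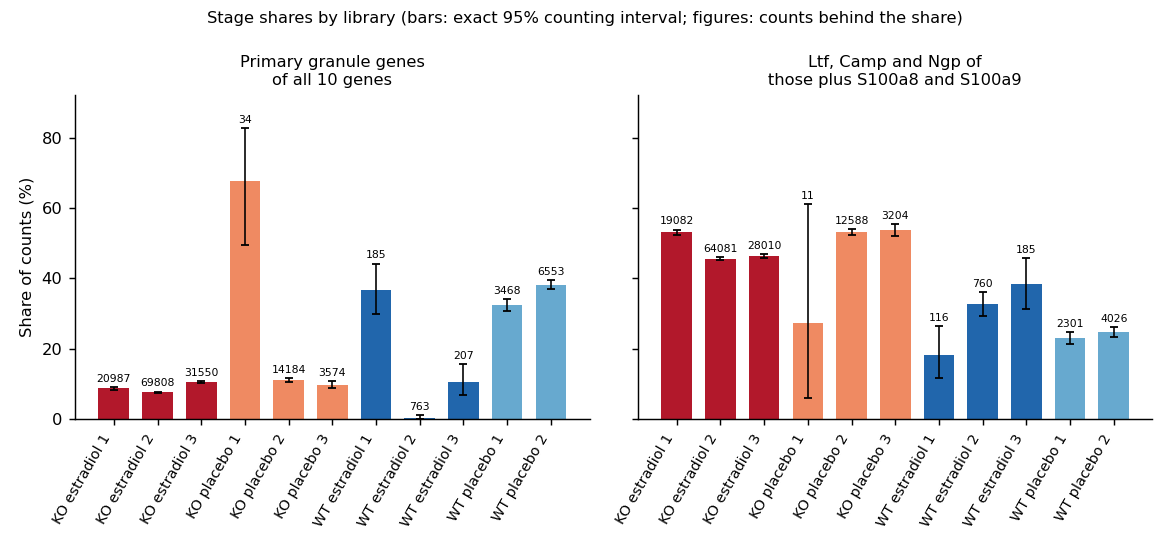
Share of counts in each library (%), with exact 95% counting intervals and the number of counts behind each bar printed above it. Left, the 4 primary granule genes among all 10; right, Ltf, Camp and Ngp among those plus S100a8 and S100a9. KO libraries other than placebo 1 lie between 7.58% and 11.1% on the left, and the WT placebo libraries at 32.4% and 38.2%.

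Across libraries, correlations were on the whole higher within a set than between sets. Over the 11 libraries, Pearson's r of log2 CPM (prior count 2) ran from 0.97 to 0.99 among the primary genes, from 0.89 to 1.00 among the later genes, and from 0.80 to 0.94 between a primary and a later gene. Fcnb, placed in the later set, was as close to the primary genes (0.93 to 0.94) as to the other later genes (0.89 to 0.94). These correlations describe points that share library, depth and group, and are not tests. The genes whose pattern was most like the mean of the primary set, among 13150 others, were Ms4a3 (r = 0.99), Ear1, Epx, Prss57, Alox15, Prg2, Ly6c2 and Ear6. Ms4a3 marks granulocyte and monocyte progenitors, and Ear1, Epx, Prg2 and Ear6 are genes of eosinophil granules. The genes most like the later set were Chi3l3, Cd177, Lcn2 (r of 0.99 or more for each), Itgb2l, Pglyrp1, Mmp8, Ifitm6 and Pram1. Lcn2 and Mmp8 encode specific granule proteins.

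**Figure D3:**
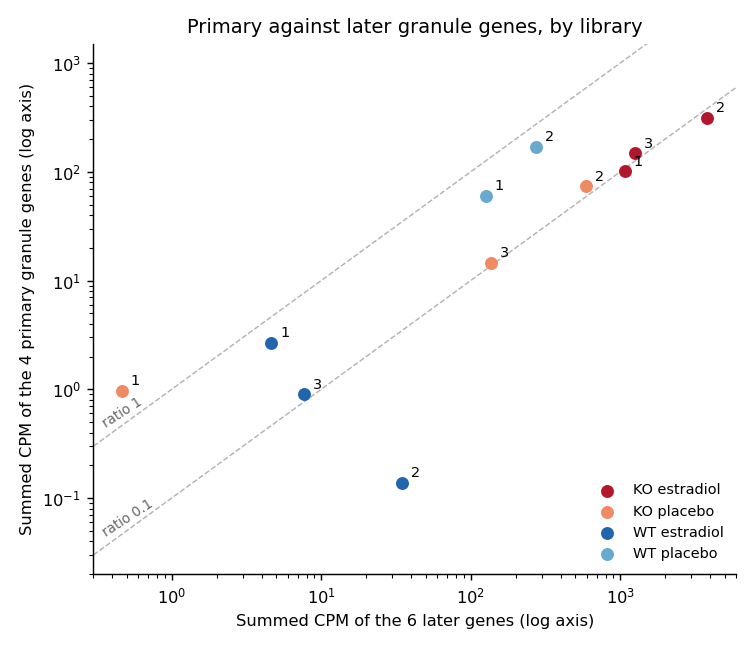
Summed CPM of the 4 primary genes against that of the 6 later genes (log axes), 1 point per library with its replicate number; dashed lines mark primary to later ratios of 1 and 0.1. The KO libraries other than placebo 1 lie along the 0.1 line, the WT placebo libraries lie nearer the line of 1, and WT estradiol library 2 lies far below both.

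In KO mice, estradiol went with higher levels of both sets. Mpo averaged 110 ± 62.5 CPM with estradiol and 18.2 ± 24.2 CPM with placebo, and Ngp averaged 515 ± 357 and 67.3 ± 83.5 CPM (SD, n = 3 each). In all 10 genes the estradiol libraries lay above every placebo library, as did 12.4% of all genes tested. Fcnb passed the test, with a log2 fold change of 4.19 (SE 0.89, adjusted p = 0.0470, edgeR), where 2.36% of all genes were called higher. The other 9 did not pass in this fit, with log2 differences of 2.27 to 3.29 and adjusted p of 0.171 to 0.407. Same-numbered KO libraries deviated together in these same data, and the labels do not say what a number marks. A fit with that number as a block is therefore no independent support. On the KO libraries alone, it called 2 of the 10, Fcnb at 4.19 (SE 0.48, adjusted p = 0.0109, edgeR) and Prtn3 at 3.0 (SE 0.43, adjusted p = 0.0425, edgeR). In that blocked fit the remaining 8 had log2 differences of 2.87 to 4.25 and adjusted p of 0.156 to 0.396, and 756 of all genes were called higher, against 343 without the block. The authors' deposited table calls 0 of the 10 here and gives Fcnb a log2 fold change of 1.28 and an adjusted p of 0.155. That table has 1074 of 23420 genes at an adjusted p under 0.05, in either direction. DESeq2 called 1 of the 10 and limma-voom 0. The medians were 2.65 for the primary set and 3.24 for the later set, beside 0.00 for all genes. Without KO placebo library 1 the log2 differences were 1.68 to 3.60, and Fcnb had an adjusted p of 0.0647. Fcnb was called in 1 of the 11 fits that left out 1 library, the one without KO estradiol library 1, and had adjusted p of 0.0223 to 0.129 over them.

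In WT mice the same treatment went with lower levels. Elane averaged 0.212 ± 0.268 CPM with estradiol (SD, n = 3) and 20.8 ± 11.8 CPM with placebo (SD, n = 2), and S100a9 averaged 6.86 ± 7.44 and 92.8 ± 48.1 CPM. The groups did not overlap in any of the 10, as in 13.8% of all genes tested in that direction. None was called by edgeR, which called 0.895% of all genes lower, although 6 had an unadjusted p under 0.05 (the 4 primary genes, S100a8 and Fcnb). DESeq2 called 5 lower, namely the 4 primary genes and Fcnb, and limma-voom called 0. The authors' deposited table gives 7 lower at an adjusted p under 0.05, a threshold that 497 of its 23420 genes pass in either direction. The log2 differences were -5.68 to -7.28 for the primary genes, with adjusted p of 0.0789 to 0.147. Fits without KO placebo library 1 or 2 each called 2 lower, Prtn3 with Fcnb and Prtn3 with Ctsg. The log2 differences were -2.81 to -3.96 for Ltf, Camp, Ngp, S100a8 and S100a9, with adjusted p of 0.344 to 0.610. Fcnb, at -6.64 (adjusted p = 0.124, edgeR), lay within the range of the primary genes. Fcnb had 1 count over the estradiol libraries and 67 over the placebo libraries, 144 times as many per scaled total in placebo (exact 95% counting interval 24.9 to 5758). In this bulk tissue, fewer granulocytes and less RNA per granulocyte cannot be told apart.

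The opposite directions were set against each other as an interaction, the KO difference minus the WT difference. Fcnb passed, at 10.83 on the log2 scale (SE 1.87, adjusted p = 0.0356, edgeR), where 0.840% of all genes were called in that direction. DESeq2 called 7 of the 10, and limma-voom called 0, Fcnb included. The value rests on the 1 count in WT estradiol and is not a bound. Prtn3 was next at 8.38 (SE 1.51, adjusted p = 0.0520), and the remaining 8 ran from 5.50 for Ltf to 9.60 for Elane with adjusted p of 0.0845 to 0.447. The primary set had a median of 9.38 and the later set of 6.91, beside 0.00 for all genes. Without KO placebo library 2, Prtn3 and Ctsg were called too, 3 genes in all. Fcnb kept its call in 4 of the 11 fits that left out 1 library. It lost it without either WT placebo library, without any of the WT estradiol libraries, without KO placebo library 3 or without KO estradiol library 3, where adjusted p ran up to 0.157.

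Under estradiol, KO libraries held far more of both sets than WT libraries. Ngp averaged 515 ± 357 CPM in KO and 2.33 ± 2.45 CPM in WT, and Prtn3 averaged 29.7 ± 16.1 and 0.313 ± 0.192 CPM (SD, n = 3 each). All 10 genes had KO libraries above every WT library, as did 17.7% of all genes tested, and 8 of 10 were called higher, against 7.27% of all genes. Among the primary genes, the log2 fold changes were 7.21 for Elane (SE 1.62, adjusted p = 0.0308), 7.30 for Mpo (1.74, 0.0389), 6.50 for Prtn3 (1.18, 0.0132) and 7.83 for Ctsg (1.81, 0.0324). Of the later genes, Camp rose by 8.21 (1.73, 0.0259), Ngp by 7.83 (1.94, 0.0441) and S100a8 by 6.78 (1.71, 0.0470). Ltf at 7.09 (adjusted p = 0.0534) and S100a9 at 6.63 (0.0668) missed the threshold, all by edgeR's quasi-likelihood test.

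Fcnb had the smallest p of the set, an adjusted p of 0.00459 under edgeR, with 750 counts in KO and 1 in WT, a ratio of 936 (exact 95% counting interval 168 to 37036). It was called in all 11 fits that left out 1 library. The other calls were less steady. The count of 8 became 1 without WT estradiol library 1 or 3, 2 without WT estradiol library 2 or KO estradiol library 2 or 3, 4 without KO estradiol library 1 and 5 without KO placebo library 3. limma-voom called 0 and DESeq2 called all 10, as does the authors' deposited table, which calls 1959 of 23420 genes in either direction. The median was 7.25 for the primary set and 7.46 for the later set, beside 0.00 for all genes.

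Under placebo, 0 of the 10 genes were called between KO and WT by edgeR, DESeq2 or limma-voom, and 0 had an unadjusted p under 0.05. Over all genes, 0.00688% were called. Relative to WT, Elane, Mpo, Prtn3 and Ctsg had log2 differences of -1.72 to -2.39, while Ltf, Camp and Ngp had 1.34 to 1.59, S100a8 -0.47, S100a9 -0.37 and Fcnb -1.42. Adjusted p ran from 0.560 to 0.949. Groups overlapped in 8 genes, and in Elane and Fcnb both WT libraries lay above the KO libraries, as in 13.8% of all genes. The signs of 5 later genes depended on 1 library: without KO placebo library 2, Ltf, Camp and Ngp were at -0.38, -0.43 and -0.37, and without KO placebo library 1, S100a8 and S100a9 were at 0.11 and 0.21. Likewise the later genes had a positive median (0.48) in the fit and a negative mean on the log2 CPM scale (-1.75), which the near-empty KO placebo library 1 enters with equal weight.

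**Figure D4:**
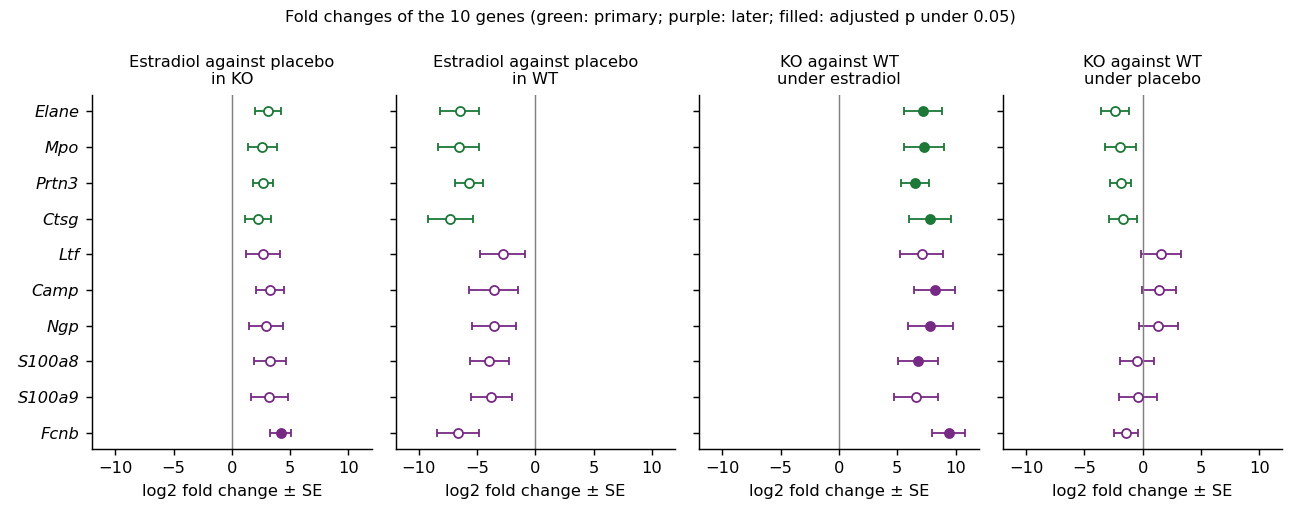
Log2 fold change ± SE of each gene in 4 comparisons (edgeR), primary genes in green and later genes in purple, filled where the adjusted p was under 0.05. Changes were positive for estradiol in KO and negative in WT; filled points are Fcnb in the first panel and 8 of the 10 genes for KO against WT under estradiol.

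The libraries with the most granule transcripts in each genotype, KO estradiol and WT placebo, differ in both genotype and agent. Set side by side, the primary genes were close: Mpo averaged 110 ± 62.5 CPM in KO estradiol (SD, n = 3) and 68.0 ± 48.9 CPM in WT placebo (SD, n = 2), and the groups overlapped in all 4. Camp averaged 157 ± 113 and 6.37 ± 3.30 CPM, and all 6 later genes had every KO estradiol library above both WT placebo libraries, as in 18.7% of all genes. The log2 differences were 0.54 to 0.82 for the primary genes (SE 0.91 to 1.31) and 2.77 to 4.65 for the later genes (SE 0.96 to 1.88). edgeR, DESeq2 and limma-voom called 0 of the 10, with unadjusted p under 0.05 for Camp and Fcnb, while edgeR called 1.38% of all genes higher. The authors' deposited table calls Ltf, Camp, Ngp and S100a8 higher here and none of the primary genes. It calls 622 of 23420 genes in either direction.

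As a single measure of balance, the mean log2 CPM of the primary genes minus that of the later genes was -2.45, -2.72 and -2.27 in KO estradiol and 0.59, -1.86 and -2.39 in KO placebo. It was 0.14, -4.46 and -1.70 in WT estradiol and 0.00 and 0.53 in WT placebo. The estradiol minus placebo difference of this measure was -1.26 in KO and -2.27 in WT, against a pooled SD of 1.51 between libraries of a group. Without KO placebo library 1, that in KO was -0.36. Without WT estradiol library 2, that in WT was -1.05. The change of balance with estradiol was thus below that SD in KO and above it in WT. The SD is of single libraries, not of group means. KO estradiol minus WT placebo gave -2.75, and -3.01 to -2.48 with 1 library left out. KO minus WT gave -1.49 under placebo and -0.48 under estradiol. No test was made of a score over chosen genes.

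Other genes of the lineage were followed as lists. Of 12 other early neutrophil genes, 2 were called higher with estradiol in KO, namely Myb at 1.51 (adjusted p = 0.0248, edgeR) and Nkg7 at 3.63, where 2.36% of all genes were. Myb encodes a transcription factor of blood progenitors. It did not follow the granule genes library by library. In KO placebo libraries 1 to 3 it stood at 28.8, 20.6 and 16.0 CPM, highest in the library nearly empty of granule transcripts. In KO estradiol it stood at 77.8, 70.5 and 38.5 CPM. In WT, Myb was the 1 called, and it fell by 4.84 (adjusted p = 0.000543, edgeR), where 0.895% of all genes were called lower. Between KO and WT under estradiol, 9 of the 12 were higher and 1, Cd63, was lower, against 7.27% and 4.2% of all genes. They included Ms4a3 at 7.88 and Cebpe at 7.89, which encodes a C/EBP factor needed for specific granules. Cebpe stood at 3.80, 15.1 and 5.32 CPM in KO estradiol, against 0.0789, 0 and 0 CPM in WT estradiol, and at 0.538 and 2.59 CPM in WT placebo. The summed level of the 12 was 1833 ± 24.5 CPM in KO estradiol and 2023 ± 42.9 CPM in WT estradiol (SD, n = 3 each). Calr averaged 782 ± 72.6 and 1049 ± 117 CPM of it.

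Of 14 other specific and gelatinase granule genes tested, Cybb was called higher with estradiol in KO, against 2.36% of all genes, and none was called in WT. Under estradiol, 9 of the 14 were higher in KO than in WT, against 7.27% of all genes, among them Lcn2 at 6.60, Chi3l3 at 7.40 and Cd177 at 6.46. The summed level of this list was 4718 ± 930 CPM in KO estradiol and 4465 ± 265 CPM in WT estradiol (SD, n = 3 each). Mmp9, which was not called, averaged 2981 ± 349 and 3734 ± 358 CPM. Of 16 mature neutrophil genes tested, 3 were called higher with estradiol in KO (Stfa2l1, Trem1 and Clec4e, at 3.66 to 4.48), 0 were called in WT, and 11 were higher in KO than in WT under estradiol. The same shares of all genes, 2.36% and 7.27%, stand beside the counts of 3 and 11. Their summed level was 63.1, 418 and 177 CPM in KO estradiol, 9.68, 56.1 and 14.9 CPM in KO placebo, 10.4, 13.4 and 11.4 CPM in WT estradiol, and 50.8 and 86.1 CPM in WT placebo. KO estradiol library 2, the highest in all 10 granule genes, was also the highest here. Under placebo, 0 genes of these 3 lists were called between KO and WT.

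Lists of markers of other blood cells differed in how they ran across the groups. The eosinophil, basophil and B lineage lists had their lowest group medians in WT estradiol. The 6 eosinophil markers summed to 130, 481 and 201 CPM in KO estradiol, 4.19, 156 and 46.7 CPM in KO placebo, 9.47, 6.07 and 5.19 CPM in WT estradiol, and 43.3 and 219 CPM in WT placebo. Epx, a defining one, was at 0 in KO placebo library 1 and in WT estradiol libraries 2 and 3. The 6 basophil and mast cell markers summed to 7.26 to 15.3 CPM in KO estradiol, 1.23 to 6.28 CPM in KO placebo, 0.276 to 0.552 CPM in WT estradiol, and 5.44 and 11 CPM in WT placebo. The 10 B lineage markers summed to 167 to 292 CPM, 77.8 to 190 CPM, 9.87 to 12.7 CPM and 46.4 to 52.7 CPM in the same groups. Under estradiol, 10 B lineage markers, 6 basophil and mast cell markers and 3 eosinophil markers were called higher in KO than in WT. Over all genes, 7.27% were. With estradiol in WT, 5 B lineage markers and 2 of basophils, Mcpt8 and Prss34, were called lower, against 0.895% of all genes. In KO, Mcpt8 and Prss34 were called higher with estradiol, against 2.36%. KO placebo library 1, nearly empty of granule transcripts, held 190 CPM of B lineage markers, the most of its group. Other lists ran otherwise. The 8 macrophage markers summed to 348 to 462 CPM in KO estradiol, 399 to 427 CPM in KO placebo, 580 to 749 CPM in WT estradiol, and 454 and 473 CPM in WT placebo, and 5 of the 8 were called lower in KO than in WT under estradiol, against 4.2% of all genes. Of 8 monocyte markers, Ly6c2 and Ccr2 were called higher in that comparison and Csf1r and Cx3cr1 lower. The 9 erythroid markers summed to 17.8, 208 and 133 CPM in KO estradiol, 4.44, 62.4 and 17.4 CPM in KO placebo, 23.0 to 24.0 CPM in WT estradiol, and 5.49 and 14.4 CPM in WT placebo. The 8 T and NK cell markers summed to 40.5 to 48.1 CPM, 26.6 to 32.5 CPM, 29.2 to 32.1 CPM and 32.2 to 33.3 CPM in the same groups. Outside KO estradiol, Cd4 made up most of that sum, at means of 21.8, 28.5 and 25.7 CPM in that order. Il7r, also in this list, moved in the directions of the granule genes. It was called higher with estradiol in KO (log2 difference 1.76, edgeR) and lower in WT (-3.07). Under estradiol it was called higher in KO than in WT (5.52), where Cd4 was called lower (-0.65). Nkg7, named above as an early neutrophil gene, is in this list too. The part of these cell types in the results on the granule genes was not tested.

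The 8 dividing cell markers summed to 476 to 634 CPM in KO estradiol and 227 to 234 CPM in KO placebo, and 7 of 8 were called higher, against 2.36% of all genes. In WT they summed to 322 to 444 CPM with estradiol and 245 to 310 CPM with placebo, and 0 of 8 were called. Of 8 neutrophil egress and retention genes tested, Cxcr4 and Itga4 were called higher with estradiol in KO, against 2.36% of all genes. In WT 1 was called lower, against 0.895%, and 6 were higher in KO than in WT under estradiol, against 7.27%. The 1 in WT was Cxcl12, which encodes the chemokine that holds neutrophils in marrow. Cxcl12 fell by 2.14 on the log2 scale with estradiol in WT (adjusted p = 0.00139, edgeR). It stood at 226, 432 and 318 CPM in KO estradiol, 197, 253 and 188 CPM in KO placebo, 54.7, 56.2 and 42.8 CPM in WT estradiol, and 235 and 216 CPM in WT placebo. Cxcr4, its receptor, was higher with estradiol in KO by 1.45 (adjusted p = 0.00402, edgeR). Any part of these genes in the results on the granule genes was not tested. The 8 skeletal muscle markers summed to 4.51 to 6.08 CPM in KO estradiol, 60.5 to 585 CPM in KO placebo, 203, 33.7 and 20.2 CPM in WT estradiol, and 23.0 and 867 CPM in WT placebo. The part of muscle in the results on the granule genes was not tested.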

How the data were processed

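The authors deposited raw counts per gene symbol for 11 libraries, in 1 column each, and 0 columns had no match in the labels. TopHat, bcl2fastq 2.17 and the mouse build mm9 are named per the submitters' processing notes. How reads were assigned to genes, and with which annotation and strand setting, is not given in the sources used here. Comparison tables that the authors deposited give log2 fold changes, p-values and a test score per the file headers, and the score was not used. The 10 granule genes, the other lists and the comparisons were chosen with earlier results of these data known.

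In R 4.3.3, edgeR 4.0.16 kept 14531 of 23420 symbols with filterByExpr (minimum counts of 10 per library and 15 in total), scaled totals by TMM, and fitted 1 robust quasi-likelihood model to the 4 groups over all 11 libraries (7 residual degrees of freedom). Adjusted p-values are Benjamini-Hochberg values over those 14531 genes, with calls made under 0.05. CPM (counts per M counts) are on the TMM-scaled totals. SE is the absolute log2 fold change over the square root of F. Named were all 10 granule genes and some of the called members of the other lists. Also named were the 8 genes of mean CPM 1 or more whose log2 CPM (prior count 2) correlated best with each set. Same-numbered libraries were checked for deviations from their group means that correlate. All 3 KO estradiol and placebo pairs exceeded 0.1 (r of 0.14 to 0.39, against -0.33 to 0.04 for the 6 differently numbered pairs). Over all groups, differently numbered pairs reached 0.20. Deviations within a group cancel out, so positive same-numbered pairs come with negative others, and the contrast is weak evidence. A pairing of the KO libraries was tried as a block from the data alone, since the labels do not say what a number marks. The main fit has no block. The scripts were tested on simulated data. DESeq2 1.42.0, limma-voom (limma 3.58.1), another scaling, another filter, a replicate block, subsets of libraries and other groupings of the genes were tried as alternatives. The comparison of KO under estradiol with WT under placebo and the block on the KO libraries alone were added after the values were seen.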

Additional observations from a re-analysis of the deposited data

Results flagged for a closer look

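The estradiol effect on Fcnb differed between KO and WT by the interaction test, by 10.83 on the log2 scale (KO effect minus WT effect). Its mean levels were 13.6 CPM in KO estradiol, 0.745 CPM in KO placebo, 0.0132 CPM in WT estradiol and 1.97 CPM in WT placebo. The WT estradiol level is 1 count over 3 libraries.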

How the results depend on the processing

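Of the 10 granule genes, 1 was called with estradiol in KO, 0 by limma-voom, with no low-count filter or with the compared groups alone, and 0 to 1 with 1 library left out. In WT the count was 0, against 5 by DESeq2, 4 with the compared groups alone, 1 at an adjusted p under 0.1, and 0 to 2 with 1 library left out. For the interaction it was 1, against 7 by DESeq2, 0 by limma-voom or with no filter, 3 at an adjusted p under 0.1, and 0 to 3 with 1 library left out. For KO against WT under estradiol it was 8, against 0 by limma-voom and 1 to 10 with 1 library left out. Under placebo, and for KO estradiol against WT placebo, it was 0 under every alternative. On weak evidence from these data alone, replicate numbers may pair the KO estradiol and placebo libraries but not the libraries of the other groups. The main fit has no block. The 12 other same-numbered pairs correlated at -0.20 to 0.20. With the number as a replicate block, 2 were called with estradiol in KO, over all libraries or over the KO libraries alone, 1 in WT, 3 in the interaction and 10 for KO against WT under estradiol. The cause of these shifts was not tested.

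For KO against WT under placebo, signs turned by limma-voom for Ltf (-1.89), Camp (-0.86) and Ngp (-1.81). With 1 library left out they also turned, over ranges of -0.38 to 2.51 for Ltf, -0.43 to 2.03 for Camp and -0.37 to 2.02 for Ngp (lowest without KO placebo library 2, highest without WT placebo library 2). S100a8 ran from -2.21 to 0.19 and S100a9 from -2.27 to 0.28 at the same extremes, and without KO placebo library 1 they were at 0.11 and 0.21. For KO estradiol against WT placebo, Ctsg ran from -0.061 without WT placebo library 1 to 1.52, and Elane from -0.088 without KO estradiol library 2 to 1.46. With 1 library left out, the balance measure ran from -1.85 to -0.36 (estradiol in KO), -3.33 to -1.05 (in WT), -0.22 to 2.07 (interaction), -1.70 to 0.58 (KO against WT under estradiol) and -2.39 to -0.90 (under placebo). Leaving S100a8 and S100a9 out of the share put the mean primary share at 16.8% in KO estradiol and 68.7% in WT placebo. Over all genes, the calls with estradiol in KO numbered 396, against 952 by DESeq2, 629 with the block, 1090 with the block on the KO libraries alone and 226 with the groups alone. In WT they numbered 225, against 656 by DESeq2 and 141 by limma-voom, and in the interaction 167, against 561, 69 and 301 with the block. Few counts of these genes limit what can be read in WT estradiol and KO placebo library 1. These were not shallow libraries, with totals of 21.5 to 25.5 M counts. WT estradiol library 2 still held 336 counts of S100a9.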
